A study of Mus musculus with 12 samples.

Results

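The genes described here are solute carriers that move amino acids and small peptides across membranes, measured in mouse cecum after a surgical burn. They were taken from the array design by symbol alone, as every gene of the families Slc1, Slc3, Slc6, Slc7, Slc15, Slc36, Slc38 and Slc43 whose symbol ends in a number, with the cystine carrier Slc7a11 left out. The rule used no measured value, but the members were chosen with earlier results of these data known. It gave 64 of the 37074 named genes and transcripts on the array. These 64 genes were read by 121 probes, and 37 of them had several probes. Each gene was read through its brightest probe. Total RNA came from the cecum of C57BL/6 mice, with 3 sham-operated mice sampled at 0 h and 3 mice at each of 3, 12 and 72 h after cauterization of the cecum, a burn of the serosa that leads to fibrous adhesions. Surgery was done under pentobarbital, no group carried a transgene, and the age of the mice was not given in the sources used here. No sham group was sampled at 3, 12 or 72 h. A difference from sham therefore cannot tell the burn from the rest of the operation or from the time passed. Each animal was hybridised to its own one-colour array. Every level below is the log2 intensity of a probe minus the 75th percentile of its array, so that a level of 0 lies at that percentile, and a level is compared only between arrays and never between probes. A gene was called when its fold change was above 2 (a log2 difference above 1 in size) and its adjusted p from limma was below 0.05, and "rose" and "fell" are used only of called genes.

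Amino acid carriers set what a cell can take up for protein synthesis, for redox balance and for making signals such as nitric oxide. Some work as single proteins coupled to sodium, protons or membrane voltage. Others, the light chains of the Slc7 family, exchange amino acids and reach the membrane only when bound to a heavy chain of the Slc3 family. In the gut, carriers on the epithelial surface absorb the products of digestion, while immune cells that enter an injured wall raise their own sets of carriers when they are activated.

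All mice were labelled male, but the female transcript Xist was above background throughout, on 12 of 12 arrays. Of genes on the Y chromosome, Kdm5d was so on 12, Uty on 1, and Ddx3y and Eif2s3y on 0. The arrays thus go against the label, and the sex of the mice is not used below. The arrays lay on 2 slides. The sham and 3 h arrays and replicates 1 and 2 of 12 h were on the first, and replicate 3 of 12 h and the 72 h arrays were on the second, so no slide holds both sham and 72 h tissue. Between 62.0% and 66.8% of spots were well above background on each array. Epithelium markers, 19 genes that were above background on all 12 arrays, kept a summed level of 11.21 to 11.44 at 12 h against 11.27 to 11.34 in sham and reached 10.19 to 10.65 at 72 h. The summed level of neutrophil markers was 5.83 to 6.02 in sham, 7.95 to 8.71 at 3 h, 9.16 to 9.24 at 12 h and 7.97 to 8.90 at 72 h, with 9, 12 and 10 of 15 genes called higher. Of 12 macrophage markers, 2, 6 and 9 were called higher at the 3 times, and Cx3cr1 was called lower at 3 and 12 h. All 7 smooth muscle markers fell at 12 and 72 h, and 5 of 7 fibroblast markers rose at 72 h after 4 of 7 had fallen at 12 h. In whole tissue, fewer cells of a type and less RNA per cell cannot be told apart.

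Of the 64 carriers, 46 were well above background on all 12 arrays, 11 on 1 to 11 arrays and 7 on none. The 7 were Slc6a3, Slc6a5, Slc6a18, Slc7a12, Slc7a13, Slc15a5 and Slc36a3. Across the 5 comparisons made, 28 carriers (43.8%, beside 19.1% of all genes) were called at least once, and 26 (40.6%, beside 16.9%) were called against sham.

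At 3 h, 3 carriers rose (4.69% of the 64, beside 3.14% of all genes) and 1 fell (1.56%, beside 4.33%). At 12 h, 11 rose (17.2%, beside 3.95%) and 3 fell (4.69%, beside 5.33%). At 72 h, 9 rose (14.1%, beside 4.5%) and 5 fell (7.81%, beside 4.4%). Between 3 and 12 h, 8 rose (beside 1.86% of all genes) and 2 fell (beside 1.6%), and between 12 and 72 h, 6 rose (beside 4.49%) and 4 fell (beside 2.94%). Shares were also taken over genes well above background on all arrays of at least 1 group of a comparison. There, 5.88%, 19.6% and 17% of carriers rose at the 3 times, beside 4.46%, 5.6% and 6.41% of such genes. Those that fell were 1.96%, 3.92% and 9.43%, beside 6.02%, 7.29% and 5.14%. Over all 64 carriers the median differences at the 3 times were -0.04, 0.02 and 0.06, beside 0.06, -0.04 and -0.15 over all genes. With normexp background correction and an offset of 50 in place of the scanner's own, 1, 2 and 3 carriers were called higher at the 3 times and 0 lower. These were Slc15a3 at all 3 times, Slc3a2 at 12 h, and Slc38a4 and Slc43a2 at 72 h. An offset by itself makes log2 differences of dim probes smaller, so the correction and the offset cannot be told apart here. No test of the carriers as a group was made, and the 3 comparisons against sham share the same 3 sham arrays.

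**Figure D1:**
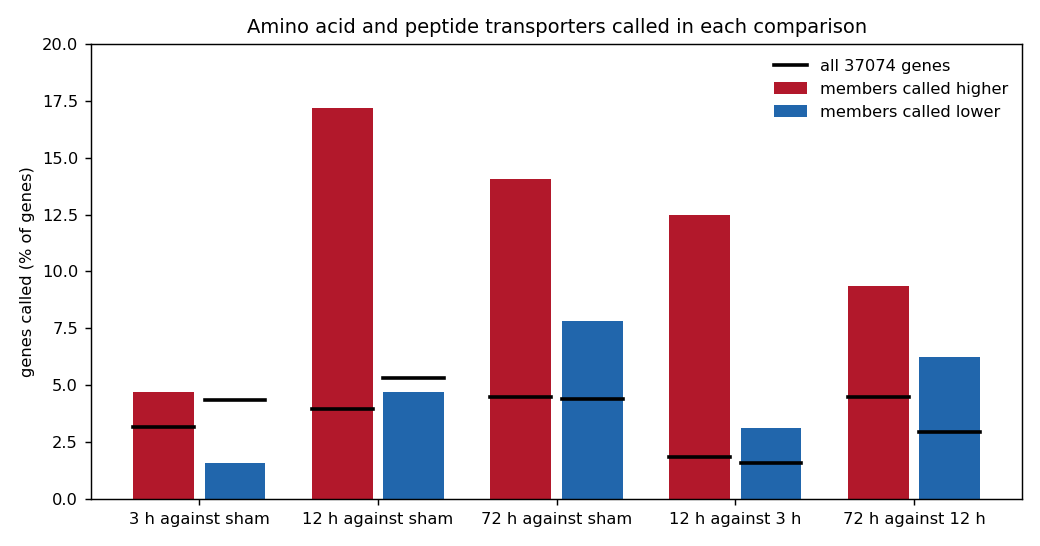
Share of genes called higher (red bars) or lower (blue bars) among the 64 carriers in each of 5 comparisons, in percent, with a black line at the share among all 37074 genes. The bar for carriers called higher at 12 h reaches 17.2% beside 3.95% of all genes, and the bar for carriers called lower at 3 h, at 1.56%, lies below its line at 4.33%.

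The carriers of di- and tripeptides and of histidine held the largest change among carriers above background on all 12 arrays. Slc15a3, a peptide and histidine carrier of lysosomes that is abundant in macrophages and dendritic cells, stood at -2.11, -2.32 and -1.76 in the sham mice. It reached -0.49, 0.41 and 0.36 at 3 h, followed by 2.37, 1.65 and 1.95 at 12 h and lastly 0.39, 0.27 and 1.35 at 72 h. Every array after cauterization lay above every sham array, and the 12 h arrays lay above those of both other times. The differences from sham were 2.15 (SE 0.34, adjusted p = 0.00212) at 3 h, 4.05 (SE 0.34, adjusted p = 4.9e-05) at 12 h and 2.73 (SE 0.34, adjusted p = 0.000607) at 72 h, in limma with Benjamini-Hochberg adjustment over all probes. The gain of 1.90 between 3 and 12 h passed (adjusted p = 0.00949), as did the loss of 1.32 between 12 and 72 h (adjusted p = 0.0239), the latter not without 12 h replicate 1, 72 h replicate 1 or 72 h replicate 2, where it ran from -1.66 to -1.12 over all single arrays left out. With a term for the slide, the difference at 72 h was 2.80 with an adjusted p of 0.0538. Neutrophil and macrophage markers were also higher after cauterization, as given above. Between 12 and 72 h, when Slc15a3 fell, 3 of 15 neutrophil markers were called lower and 1 higher, while 5 of 12 macrophage markers were called higher and 2 lower and their summed level ran from 8.22 to 8.43 and from 8.22 to 8.40. The part of these cells was not tested. The gene had a single probe, printed because it carries this largest change. Its sequence of 60 bases matches 351 bases of mm9 at chr19:10931798-10932148 on the plus strand, so it joins parts of the transcript that are apart in the genome:
Slc15a3 probe: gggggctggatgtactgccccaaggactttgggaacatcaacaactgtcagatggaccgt

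On their brightest probes, the other 4 genes of that family did not pass against sham at any time. Slc15a1, the peptide carrier of the intestinal brush border, stood at -3.94, -3.35 and -3.61 in sham and -4.73, -4.52 and -4.09 at 3 h, then -3.08, -3.46 and -3.38 at 12 h and lastly -4.38, -4.02 and -4.36 at 72 h. Its 3 and 72 h arrays lay below all sham arrays and its 12 h arrays overlapped them. It rose by 1.14 between 3 and 12 h (SE 0.21, adjusted p = 0.0106), but not without 3 h replicate 1 or within the first slide alone. This brightest probe is listed for a sequence that is not a RefSeq transcript. A dimmer probe, listed for the RefSeq transcript of Slc15a1, gave 2.06 over this step and was not called (limma adjusted p = 0.161). On the mean of all probes the call was lost too. Slc15a4, a lysosomal histidine carrier of immune cells, differed by -0.56, -0.59 and -0.48 at the 3 times, within the fold limit, at adjusted p of 0.0135, 0.00885 and 0.0259. Slc15a2, a peptide carrier of kidney and brain, differed by -0.06, -0.10 and -0.18 on its brightest probe. Another of its probes was above background on all 3 sham arrays and on none at 3 or 12 h. That probe was called lower than sham at 3 and 12 h, at a fitted -2.05 and -3.23 (limma adjusted p = 0.00866 and 0.000607). It was called higher at 72 h than at 12 h (limma adjusted p = 0.00551), so the result for Slc15a2 depended on the probe.

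The carriers of arginine and lysine that work without a heavy chain held 2 of the 3 rises at 3 h. Slc7a1, the widely expressed arginine carrier, stood at 2.51, 2.69 and 3.11 in sham and at 3.91, 3.62 and 3.89 at 3 h. The 12 h arrays gave 3.68, 3.51 and 3.26 and the 72 h arrays 2.44, 2.56 and 2.43. It was above every sham array at 3 and 12 h and overlapped them at 72 h. The rise at 3 h was 1.04 (SE 0.17, adjusted p = 0.00265), just past the fold limit, and leaving out sham replicate 1 or 2 or 3 h replicate 1 or 3 brought it under that limit, with a range of 0.91 to 1.21. The call was also lost with quantile normalization, with normexp, and with the percentile taken over probes well above background on all 12 arrays. At 12 h the difference of 0.71 was within the fold limit (adjusted p = 0.014). It fell by 1.004 between 12 and 72 h (adjusted p = 0.00366), which was lost without 12 h replicate 1 or 2 or without 72 h replicate 1 or 3 (-1.12 to -0.91). The same changes of scaling and background lost this call too, as did a term for the slide, which gave -0.78 (limma adjusted p = 0.099).

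Slc7a2, a second arginine carrier that activated macrophages induce together with nitric oxide synthase, was not well above background on any sham array, where it read -7.77, -7.85 and -7.72. It read -5.21, -4.77 and -2.52 at 3 h, followed by -3.00, -3.04 and -5.71 at 12 h and lastly -3.74, -4.94 and -3.12 at 72 h. It was well above background on 3, 2 and 3 of these arrays, and all 9 lay above all sham arrays. Set against the lowest signals measured on the sham arrays, the rise was at least 2.59-fold at 3 h, at least 3.08-fold at 12 h and at least 3.05-fold at 72 h (limma adjusted p = 0.0148, 0.00909 and 0.0104). Here and below, a p beside such a bound tests the fitted difference and not the bound. With dim signals set to a floor, the differences were 1.37, 1.73 and 1.61 and none passed (adjusted p = 0.146, 0.134 and 0.167). The other 3 genes of this group, Slc7a3, Slc7a4 and Slc7a14, were above background on all arrays and differed from sham by -0.58 to 0.28.

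Of 11 listed genes of arginine and polyamine metabolism, 5 rose at 3 h, 5 at 12 h and 2 at 72 h, and none fell. Arg1, which splits arginine to ornithine, was not well above background in sham and rose at least 13.4-fold at 3 h, at least 92.5-fold at 12 h and at least 298-fold at 72 h. Nos2, which makes nitric oxide from arginine, rose by 2.37, 3.42 and 3.85. Odc1, the first enzyme of polyamine synthesis, rose by 1.12 at 3 h, and Azin1, which protects it from decay, by 1.65, while at 72 h they differed by -0.44 and -0.28. The list's median difference was 1.02, 0.74 and 0.48 at the 3 times, beside 0.06, -0.04 and -0.15 over all genes.

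**Figure D2:**
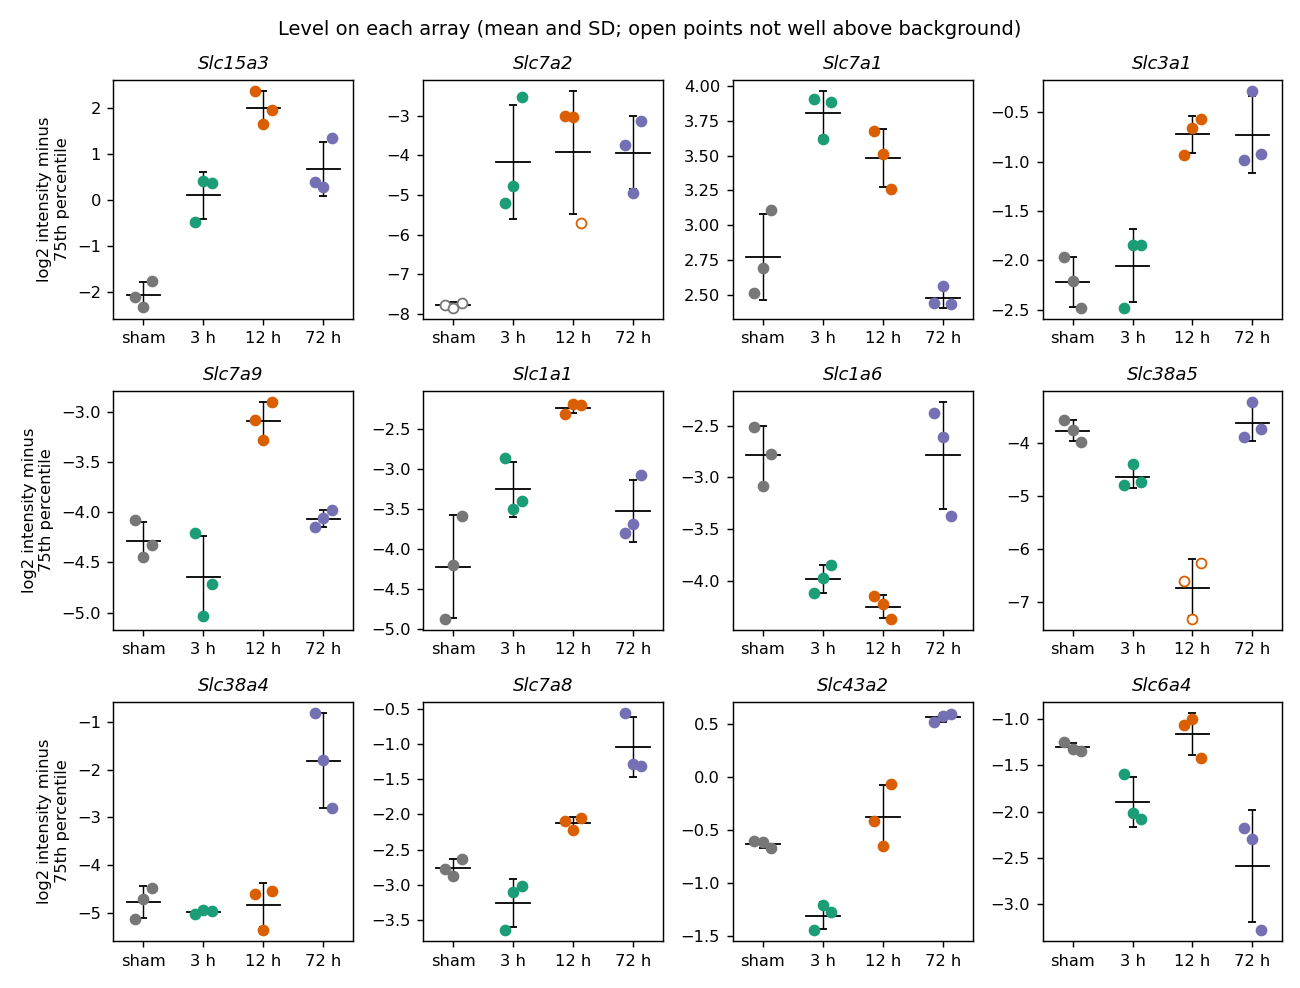
Level of 12 carriers on each of the 12 arrays, as log2 intensity minus the array's 75th percentile, by group (sham, 3 h, 12 h, 72 h), with the mean as a line and the SD as an error bar (n = 3). Open points were not well above background. Slc15a3 is highest at 12 h, Slc7a1 at 3 h, Slc38a4 and Slc7a8 at 72 h, and Slc38a5 has its 3 open points at 12 h only.

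Both heavy chains rose. Slc3a1, the heavy chain of the cystine and dibasic amino acid exchanger of kidney and gut epithelium, stood at -1.97, -2.21 and -2.48 in sham and -2.48, -1.84 and -1.84 at 3 h. It stood at -0.93, -0.66 and -0.57 at 12 h and -0.98, -0.28 and -0.92 at 72 h. The 3 h arrays overlapped sham and the 6 later arrays lay above all sham and 3 h arrays. It rose by 1.5 at 12 h (SE 0.24, adjusted p = 0.00171) and by 1.49 at 72 h (SE 0.24, adjusted p = 0.00225), and by 1.33 between 3 and 12 h (adjusted p = 0.00972). Slc7a9, the light chain that pairs with it, stood at -4.08, -4.45 and -4.33 in sham and -4.21, -5.03 and -4.71 at 3 h. The 12 h arrays gave -3.08, -3.28 and -2.90, and the 72 h arrays -4.15, -4.06 and -3.98. It was high at 12 h alone, by 1.20 over sham (SE 0.20, adjusted p = 0.00209) and by 1.56 over 3 h (adjusted p = 0.00224), and differed from sham by 0.22 at 72 h (adjusted p = 0.477), when its partner was 1.49 above sham. The differences of the partners were not tested against each other. A dimmer probe of Slc7a9, above background on none of the 12 arrays, gave 1.12 at 12 h. The summed level of the epithelium markers at 12 h overlapped that of sham, and 2 of the 19 were called lower. The probes of this pair are shown because both partners rose at 12 h. They lie at chr17:85463142-85463201 and chr7:36248629-36248688 of mm9, both on the plus strand, and the gene parts there were not assigned:
Slc3a1 probe: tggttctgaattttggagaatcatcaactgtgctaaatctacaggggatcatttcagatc
Slc7a9 probe: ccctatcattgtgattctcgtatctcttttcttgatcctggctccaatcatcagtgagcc

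Slc3a2, the heavy chain CD98 that serves most light chains, stood at 2.18, 2.03 and 2.19 in sham and 2.71, 2.68 and 2.97 at 3 h. Later arrays gave 3.35, 3.17 and 3.14 at 12 h, followed by 2.90, 2.81 and 2.90 at 72 h. All 9 arrays after cauterization lay above all sham arrays. The difference passed at 12 h, at 1.08 (SE 0.11, adjusted p = 0.000173), and stayed within the fold limit at 3 h (0.65) and 72 h (0.73). Of its 2 dimmer probes, 1 gave 1.14 at 12 h and the other 0.21. Its light chains went different ways. Slc7a7, which exports arginine and lysine from epithelia and macrophages, stood at 1.19, 1.30 and 1.40 in sham and 1.22, 1.15 and 1.08 at 3 h, then 2.30, 2.38 and 2.31 at 12 h and lastly 1.92, 2.17 and 2.21 at 72 h. Its 12 and 72 h arrays lay above all others. It rose by 1.04 at 12 h (SE 0.11, adjusted p = 0.000176), though without sham replicate 1 it came under the fold limit. Quantile normalization and normexp also lost this call. Between 3 and 12 h it rose by 1.18 (adjusted p = 0.000842). At 72 h its difference of 0.80 was within the limit.

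Slc7a8, a light chain for neutral amino acids of basolateral membranes, rose at 72 h. It stood at -2.77, -2.87 and -2.63 in sham and -3.64, -3.10 and -3.02 at 3 h. The 12 h arrays gave -2.10, -2.22 and -2.05, and the 72 h arrays -0.56, -1.28 and -1.31. The 4 groups did not overlap. It rose by 1.70 at 72 h (SE 0.22, adjusted p = 0.000723), by 1.13 between 3 and 12 h and by 1.07 between 12 and 72 h, the first of these steps not without 3 h replicate 1 and the second not without 72 h replicate 1. Slc7a6, which exchanges basic for neutral amino acids, rose by 1.09 at 72 h (SE 0.21, adjusted p = 0.00579), and a second probe gave 1.24, but without 72 h replicate 1 the difference was 0.83. Slc7a5, the large neutral amino acid carrier of dividing cells, went the other way. It stood at -3.64, -3.44 and -3.25 in sham and -4.54, -4.49 and -4.37 at 72 h, with 3 and 12 h arrays between -4.11 and -3.08. It fell by 1.02 at 72 h (SE 0.20, adjusted p = 0.00582), within the limit without sham replicate 3 or 72 h replicate 1 (-1.12 to -0.93). Quantile normalization, normexp, and the percentile over probes well above background on all 12 arrays each lost this call too. Slc7a10, a carrier of small neutral amino acids, gave 1.005 at 12 h on its brightest probe (adjusted p = 0.00781), but -2.48 on a dimmer probe, so its direction depended on the probe. The dimmer probe is listed for a RefSeq transcript and the brightest is not. Slc7a10 also lost the call without sham replicate 2 or 12 h replicate 3. Slc7a15 differed from sham by -0.43 to -0.11.

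The promoter of Slc7a7 is shown because it was the only promoter among called carriers with the letters TGATGNAA, the core of the composite element that C/EBP and ATF4 bind in genes of amino acid shortage. RefSeq promoter windows of GRCm38.p6, which run from before each start of transcription to just after it, were at hand for 45 of the 64 carriers (66 promoters) and for 21 of the 28 called carriers. On either strand these letters stood in 4 of the 66 promoters (6.1%), those of Slc1a4, Slc15a5 and Slc7a7, and in 4.0% of all 32851 promoters. The 258 bases at chr14:54417937-54418194 on the minus strand hold 2 matches, in capitals, beginning 141 bases and 1 base before a start of Slc7a7:
Slc7a7 promoter: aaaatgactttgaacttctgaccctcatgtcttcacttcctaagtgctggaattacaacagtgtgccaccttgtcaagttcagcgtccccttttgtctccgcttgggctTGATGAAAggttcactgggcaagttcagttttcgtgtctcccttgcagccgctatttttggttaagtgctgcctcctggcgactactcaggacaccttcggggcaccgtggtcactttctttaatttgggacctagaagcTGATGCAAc

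A second search looked for a loose NF-kB site, the letters GGGA and CC parted by any 4 bases, on either strand. It matched 20 of the 66 promoters (30.3%) and 20.7% of all promoters. Counted by gene, where 1 matching promoter is enough, it matched 16 of the 45 carriers with a promoter. Of the 21 called carriers with a promoter it matched 11, Slc1a1, Slc7a1, Slc7a7 and Slc38a4 among them. No count by gene was made over all genes, and counts by gene are not comparable with shares of promoters. The match is a description of letters and not of binding.

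Of 20 listed genes of the amino acid response, 7 rose at 3 h, 6 at 12 h and 2 at 72 h, and 1 fell at 72 h. Cebpb rose by 2.49, 3.22 and 2.85, and Atf3 by 2.44, 2.14 and 1.06. Chac1, which degrades glutathione, rose by 2.22 and 2.24 at 3 and 12 h. Asns, which makes asparagine, rose by 2.11 at 12 h and differed by 0.97 and 0.30 at 3 and 72 h. The list's median was 0.43, 0.59 and 0.33.

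Among the sodium-driven glutamate carriers, 3 of 5 were called against sham, 1 rising and 2 falling. Slc1a1, the glutamate and cysteine carrier of epithelia and neurons, stood at -4.87, -4.20 and -3.59 in sham and -2.86, -3.50 and -3.40 at 3 h. Later arrays gave -2.32, -2.19 and -2.20 at 12 h, followed by -3.80, -3.69 and -3.08 at 72 h. All arrays of 12 h lay above all others. It rose by 1.98 at 12 h (SE 0.31, adjusted p = 0.00158), and a second probe gave 1.38 and also passed. It fell by 1.29 between 12 and 72 h (adjusted p = 0.0187), but not without 12 h replicate 2, 72 h replicate 1 or 72 h replicate 2. Over that step the second probe gave -0.999, just within the fold limit. Between 3 and 12 h the second probe was called higher, by 1.22 (limma adjusted p = 0.0151). The brightest gave 1.02 there and was not called (limma adjusted p = 0.074).

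Slc1a6, a glutamate carrier known from Purkinje cells, fell early. It stood at -2.51, -3.08 and -2.77 in sham and -4.12, -3.97 and -3.85 at 3 h, then -4.15, -4.23 and -4.37 at 12 h and lastly -2.38, -2.61 and -3.37 at 72 h. The 3 and 12 h arrays lay below all sham and 72 h arrays. It fell by 1.19 at 3 h (SE 0.24, adjusted p = 0.00711) and by 1.46 at 12 h (SE 0.24, adjusted p = 0.00196) and rose by 1.46 between 12 and 72 h (adjusted p = 0.00298). Slc1a2, the main glutamate carrier of astrocytes, stood at -2.90, -3.17 and -3.26 in sham and -3.00, -2.77 and -2.57 at 3 h. The 12 h arrays gave -3.94, -4.26 and -4.12, and the 72 h arrays -4.49, -4.65 and -3.82. All 6 later arrays lay below all sham and 3 h arrays. It fell by 1.21 at 72 h (SE 0.21, adjusted p = 0.00379) and by 1.33 between 3 and 12 h (adjusted p = 0.00633), while at 12 h its difference from sham of -0.996 just missed the fold limit (adjusted p = 0.0084). A second probe of Slc1a2 was above background on no array. Of 10 enteric neuron and glia markers, 1 was called higher at 3 h, 2 lower at 12 h and 1 lower at 72 h, and the part of such cells in these values was not tested. The exchangers of alanine, serine and cysteine were not called. Slc1a4 differed by 0.45, 0.36 and 0.77 at adjusted p of 0.0138, 0.0305 and 0.000938, and the glutamine carrier Slc1a5 by 0.07, 0.02 and -0.29.

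The glutamine and neutral amino acid carriers of the Slc38 family held 2 called members of 11, 1 falling at 12 h and 1 rising at 72 h. Slc38a5, which moves glutamine, histidine and glycine in exchange for protons, stood at -3.57, -3.77 and -3.98 in sham and -4.80, -4.41 and -4.74 at 3 h. It read -6.61, -7.32 and -6.27 at 12 h, where it was well above background on no array, and -3.89, -3.23 and -3.75 at 72 h. The 3 h arrays lay below all sham arrays, and the 72 h arrays overlapped sham. At 12 h it was at least 3.35-fold lower than in sham (adjusted p = 7.85e-05) and at least 1.83-fold lower than at 3 h (adjusted p = 0.00235, a call lost at -0.87 with a floor on dim signals), and at 72 h at least 3.72-fold higher than at 12 h (adjusted p = 0.000175). At 3 h its difference of -0.88 was within the fold limit (adjusted p = 0.0466).

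Slc38a4, a carrier best known from liver, stood at -5.13, -4.71 and -4.47 in sham and -5.02, -4.95 and -4.96 at 3 h. Later arrays gave -4.61, -5.36 and -4.54 at 12 h, followed by -0.81, -1.80 and -2.81 at 72 h. The first 3 groups overlapped and each 72 h array lay above all of them, while the 72 h arrays spread widely among themselves. It rose by 2.96 at 72 h over sham (SE 0.43, adjusted p = 0.00128) and by 3.02 over 12 h (adjusted p = 0.00145). A dimmer probe gave 1.25 against sham and was not called (limma adjusted p = 0.0544), while over 12 h it was called higher. Several marker lists also spread at 72 h. Their summed levels were 8.18 to 9.36 for fibroblasts (6.80 to 6.94 in sham), 1.74 to 3.17 for mesothelium (0.69 to 1.04) and 2.53 to 6.76 for fat cells (3.46 to 4.42), and their part was not tested. Slc38a2, the carrier that rises in cells short of amino acids, differed by 0.95 at 3 h (adjusted p = 0.00366), just within the limit. Slc38a1, Slc38a6, Slc38a7, Slc38a8, Slc38a9, Slc38a10 and Slc38a11 differed by -0.85 to 0.61 over the 3 times. Of 12 listed genes of glutamine and glutamate metabolism, none was called at 3 h, 3 fell at 12 h, and 2 rose and 2 fell at 72 h, when Gpt, an alanine transaminase, fell by 2.13 and Glul, which makes glutamine, rose by 1.03.

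In the Slc43 family, 2 of 3 genes rose at 72 h, both uniporters of branched-chain and other large neutral amino acids. Slc43a2 stood at -0.60, -0.61 and -0.67 in sham and -1.44, -1.20 and -1.27 at 3 h, then -0.41, -0.65 and -0.06 at 12 h and lastly 0.52, 0.58 and 0.60 at 72 h. The 3 h arrays were the lowest and the 72 h arrays the highest, and the latter lay close together. It rose by 1.19 at 72 h (SE 0.14, adjusted p = 0.000497), with 0.62 and 0.21 on its 2 dimmer probes. Slc43a1 stood at -2.43, -2.13 and -2.32 in sham and -2.80, -3.34 and -3.42 at 3 h. The 12 h arrays gave -2.68, -2.89 and -2.43, and the 72 h arrays -0.73, -1.26 and -1.45. It rose by 1.14 at 72 h (SE 0.22, adjusted p = 0.00584), but not without 72 h replicate 1, and by 1.52 between 12 and 72 h (adjusted p = 0.00177). A dimmer probe of Slc43a1, above background on all 12 arrays, gave -0.46 at 72 h against sham, so the direction depended on the probe. Between 12 and 72 h that probe gave 0.20 and was not called (limma adjusted p = 0.519). Slc43a3, a carrier of purine bases in the same family, differed by 0.94 at 72 h (adjusted p = 0.00756), just within the limit.

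**Figure D3:**
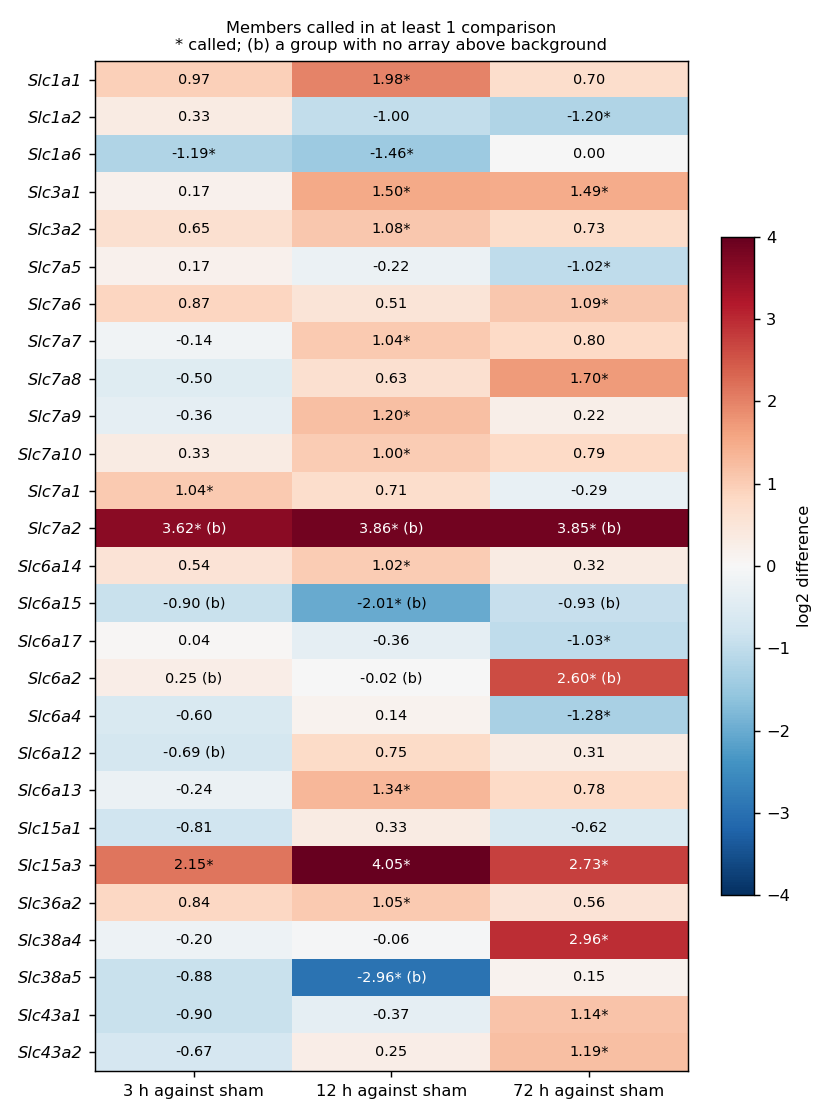
Log2 difference from sham at 3, 12 and 72 h (columns) for 27 of the 28 carriers called in at least 1 of 5 comparisons (rows), on a colour scale from -4 (blue) to 4 (red). A star marks a called difference and (b) a comparison in which a group had no array above background, where the printed fitted value is no measure of size. Slc15a3 and Slc7a2 are starred in all 3 columns, and no carrier is starred in both directions.

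Among the Slc6 carriers of neutral amino acids, 1 of 9 rose and 2 fell against sham. Slc6a14, which takes up neutral and basic amino acids and is induced in inflamed colon, stood at 0.83, 0.48 and -0.40 in sham and 0.49, 1.01 and 1.01 at 3 h. Later arrays gave 1.36, 1.35 and 1.27 at 12 h, followed by 0.22, 0.90 and 0.73 at 72 h. It was above all sham arrays at 12 h alone, by 1.02 (SE 0.30, adjusted p = 0.0337). This call was lost on leaving out sham replicate 2 or 3 or any 12 h array. Slc6a17, a vesicle carrier of neurons, fell by 1.03 at 72 h (SE 0.18, adjusted p = 0.00358). The call was lost without sham replicate 2 or 3 or 72 h replicate 3, and with quantile normalization or normexp. A dimmer probe of Slc6a17 gave -0.88 at 72 h and -1.60 at 12 h. Slc6a15 was well above background on sham replicate 1 alone and on no array at 12 h, where it was at least 1.05-fold lower. Its fitted difference was called (limma adjusted p = 0.0129), a call lost without sham replicate 1 or with a floor on dim signals. Slc6a19, the main neutral amino acid carrier of small intestine, was above background on 12 h replicate 3 alone, at -1.60 beside -6.58 and -7.81 on the other 12 h arrays and -6.74 to -6.24 in sham.

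The Slc6 carriers of transmitters, creatine and osmolytes held 5 called members of 9. Slc6a4, the serotonin carrier, stood at -1.25, -1.32 and -1.34 in sham and -1.59, -2.02 and -2.08 at 3 h, then -1.06, -1.0 and -1.42 at 12 h and lastly -2.18, -2.30 and -3.28 at 72 h. The 72 h arrays lay below all others. It fell by 1.28 at 72 h (SE 0.27, adjusted p = 0.00805), though not without 72 h replicate 3 (-0.94), and by 1.43 between 12 and 72 h (adjusted p = 0.00568). Its second probe gave -1.78 at 72 h and also passed. Slc6a4 in gut is chiefly a gene of the epithelium, and at 72 h 6 of 19 epithelium markers fell, Car4 by 3.68 and Aqp8 by 2.96. Their part in the fall was not tested.

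Slc6a2, the noradrenaline carrier of sympathetic nerves, was above background at 72 h alone, at -4.63, -5.40 and -5.63, while all 9 other arrays lay between -8.00 and -7.44. It was at least 1.25-fold higher than in sham (adjusted p = 7.15e-05) and at least 1.23-fold higher than at 12 h (adjusted p = 0.000158). Each p tests the fitted difference, and both bounds are below the fold limit. With a floor on dim signals these differences were 0.32 and 0.30 and neither passed. A second probe was above background on no array. Slc6a13 and Slc6a12, carriers of GABA with taurine and of betaine, were called higher at 12 h than at 3 h. Slc6a13 stood at -5.22, -4.81 and -4.66 in sham and -5.49, -5.03 and -4.88 at 3 h. The 12 h arrays gave -3.12, -4.17 and -3.40, and the 72 h arrays -4.38, -4.48 and -3.48. It rose by 1.33 at 12 h over sham (SE 0.33, adjusted p = 0.0169), not without sham replicate 1, 12 h replicate 1 or 12 h replicate 3, and by 1.57 over 3 h (adjusted p = 0.0189), not without 3 h replicate 1 or 2 or 12 h replicate 1 or 3. With a term for the slide these were 1.25 (adjusted p = 0.0505) and 1.49 (adjusted p = 0.0642), and the second was also lost within the first slide. Slc6a12 was at least 1.72-fold higher at 12 h than at 3 h (adjusted p = 0.0173), where it was above background on no array, and this too was lost without 3 h replicate 1 or 2 or 12 h replicate 1 or 3, with a floor on dim signals or with a term for the slide. Against sham it differed by 0.75 at 12 h (adjusted p = 0.104), and its 72 h arrays, at -5.47, -5.01 and -4.29, overlapped those of 12 h, at -4.05, -4.91 and -4.50. The creatine carrier Slc6a8 differed by 0.69 at 12 h (adjusted p = 0.0046) and the taurine carrier Slc6a6 by 0.22, -0.30 and -0.31.

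Of the 4 proton-driven amino acid carriers, Slc36a2, a carrier of glycine and proline, was called at 12 h, by 1.05 (SE 0.20, adjusted p = 0.00442). Its brightest probe stood at -1.72, -1.87 and -1.50 in sham and -0.78, -0.73 and -0.45 at 12 h. Its 2 dimmer probes gave -0.94 and -0.63, so the direction depended on the probe. Of all its probes, only that giving -0.94 is listed for a RefSeq transcript. The call was lost without sham replicate 2 or 12 h replicate 3. Slc36a1 and Slc36a4 differed by -0.40 to 0.61 over the 3 times.

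Several carriers that were not called on their brightest probe had a dimmer probe that was. At 3 h, such probes of Slc15a4 and Slc6a17 gave -1.11 and -1.01, where the brightest gave -0.56 and 0.04, and one of Slc7a6 gave 1.15, where the brightest gave 0.87. At 12 h a dimmer probe of Slc6a8 was higher by 1.28, where the brightest gave 0.69. Dimmer probes of Slc15a2 at 3 and 12 h and of Slc38a6 at 3 h were called lower with all 3 sham arrays and no array of the later group above background, and those of Slc15a2 and Slc6a7 called lower at 72 h were above background on no array of either group.

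At 72 h, the calls also depended on the term for the slide. When it was fitted, 2 of the 14 called carriers kept their call, Slc7a2 and Slc6a2 (adjusted p = 0.0256 and 0.0203). Neither was above background on any sham array, and the fitted value of Slc7a2 moved from 3.85 to 6.54. Of the others, 6 stayed past the fold limit with a larger error, such as Slc7a8 at 1.59 (adjusted p = 0.0774), Slc38a4 at 2.52 (adjusted p = 0.127) and Slc3a1 at 1.27 (adjusted p = 0.164). Among those that moved inside it, Slc7a5, Slc6a4, Slc6a17, Slc43a1 and Slc43a2 went to -0.36, -0.90, -0.64, 0.79 and 0.72. This fit learns the slide from the 12 h group, whose replicate 3 alone lay on the second slide. At 12 h, 10 of 14 calls remained with the slide term and 11 of 14 on the first slide alone, and at 3 h all 4 remained in both. The calls at 12 h lost with the slide term were those of Slc7a10, Slc6a13, Slc6a14 and Slc36a2. Between 12 and 72 h, 4 of 10 remained with it, and the 4 falls, of Slc1a1, Slc7a1, Slc6a4 and Slc15a3, were all lost.

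**Figure D4:**
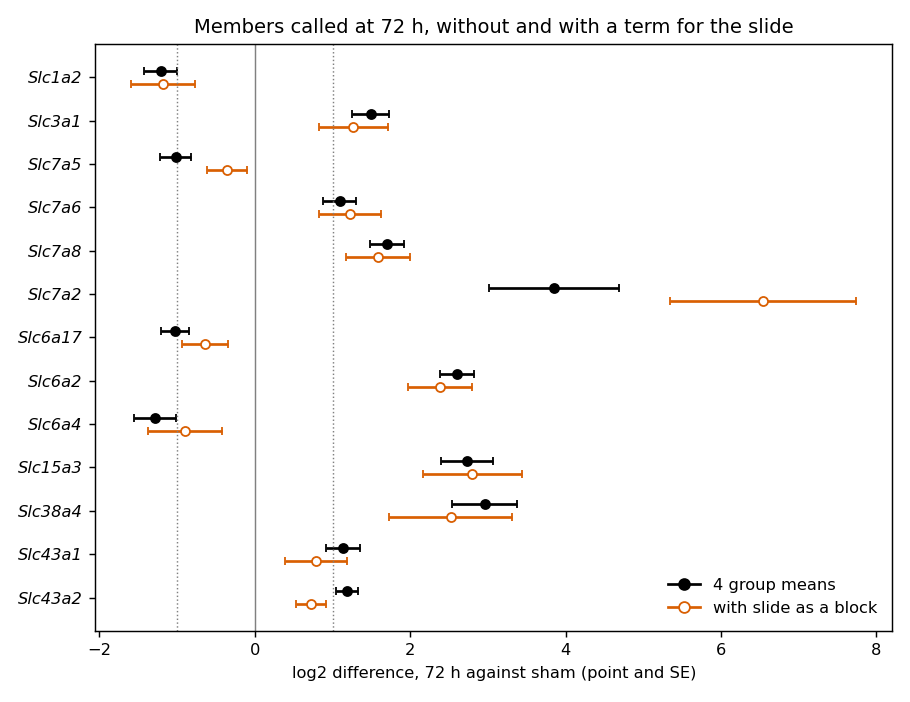
Log2 difference from sham at 72 h, with its standard error, for 13 of the 14 carriers called there, fitted on the 4 group means (black) and with a further term for the slide (orange, open points). Dotted lines mark the fold limit at -1 and 1. The orange error bars are the wider ones, Slc7a5 moves from -1.02 to -0.36, and Slc7a2 and Slc6a2 remain called.

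Other related lists were tested against sham. Of 18 further amino acid carriers, from other families or, as Slc6a20a and Slc6a20b, with a symbol that ends in a letter, none was called at 3 or 12 h and 1, the vesicle carrier Slc32a1, at 72 h, where it rose by 2.5 (adjusted p = 0.033). Of 13 brush-border partners and peptidases, none was called at 3 h, Dpep1 fell by 1.11 at 12 h, and at 72 h Dpep1 fell by 1.99 and the sodium exchanger Slc9a3 fell by 5.71. Of 21 genes of amino acid sensing and mTORC1, 2, 1 and 1 fell at the 3 times and none rose. Of 11 genes of tryptophan metabolism, Ido2 rose by 1.21 at 3 h and 1.36 at 12 h, Kynu fell by 1.18 at 3 h, and Ddc fell by 1.52 at 12 h and fell by 1.48 at 72 h.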

How the data were processed

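Each animal's cecum RNA was hybridised to a one-colour Agilent mouse array, in 4 groups of 3 arrays. The authors deposited each array's scanner output, whose background-corrected intensity was made with Agilent Feature Extraction. A log2 table, which the authors scaled in GeneSpring by the 75th percentile and also deposited, was used as an alternative (r = 0.9995 with the values recomputed here, across probes after centring). Control and outlier spots were left out, spots of a probe averaged, and log2 intensity minus the array's 75th percentile over its spots (263.2 to 374.5 intensity) was computed. limma 3.58.1 in R 4.3.3 fitted 4 group means over 12 arrays, and p-values were adjusted by Benjamini-Hochberg across 56605 probes. A bound ("at least") sets the bright group's mean against the dim group, each of whose arrays takes the lower end of its measurable signal or the probe's own value if higher. The adjusted p beside a bound tests the fitted difference and not the bound. The fit was tested on simulated data with independent noise and no slide effect. At 12 h against sham it recovered 67% of 100 log2 changes of 1.5 and 92% of 100 changes of 2.5. It also called 5 unchanged genes. Python 3.11.15, pandas 2.3.3 and matplotlib 3.10.9 made the sequence tables and figures. Probe positions are those of mm9 in the files, no genome was used, and exons were not assigned. Separate animals are taken from the study's methods, and 3 arrays a group limit the precision. The rule for naming took every called member, with values on each array for the largest changes, and up to 3 others per role. A called member is counted but otherwise not reported here. The members and gene lists were chosen with earlier results of these data known. The lists were the ATF4 response, arginine, glutamine and tryptophan metabolism, mTORC1 sensing, other amino acid carriers, brush-border genes, genes of sex, and markers of epithelium, neutrophils, macrophages, smooth muscle, fibroblasts, mesothelium, neurons and glia, lymphocytes, fat and endothelium.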

Additional observations from a re-analysis of the deposited data

Results flagged for a closer look

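Each carrier here differed between 2 times after cauterization, in limma's test of the difference itself, with values on the log2 scale. Between 3 and 12 h, Slc1a2 fell by 1.33 and Slc38a5 gave -2.08 on the fitted scale. Over the same step Slc3a1 rose by 1.33, Slc7a7 by 1.18, Slc7a8 by 1.13, Slc7a9 by 1.56, Slc6a12 by a fitted 1.44, Slc6a13 by 1.57, Slc15a1 by 1.14 and Slc15a3 by 1.90. Between 12 and 72 h, the differences were -1.29 for Slc1a1, -1.0 for Slc7a1, -1.43 for Slc6a4 and -1.32 for Slc15a3. Over that step Slc1a6 rose by 1.46, Slc7a8 by 1.07, Slc6a2 by a fitted 2.62, Slc38a4 by 3.02, Slc38a5 by a fitted 3.11 and Slc43a1 by 1.52. On its dimmer probe Slc43a1 differed by 0.20 and was not called. The 4 fitted values have a group with no array above background, and the bounds in the report apply to them. The 12 h and 72 h arrays lie on different slides except for 12 h replicate 3.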

How the results depend on the processing

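A t-test paired by replicate number called 0 carriers in every comparison after adjustment. The paper names a paired t-test in its general statistics. For its arrays it gives only the fold and adjusted p limits. With 3 pairs and adjustment over 56605 probes such a test can call little, so the 0 does not show what the paper's array test would call. At an unadjusted p below 0.05 and a fold above 2, the paired test counted 3, 8 and 6 carriers as higher than sham at the 3 times. Those counted as lower were 1, 4 and 3. For the steps from 3 to 12 h and from 12 to 72 h, 5 and 6 were counted as higher, with 2 and 3 as lower. Background correction with normexp and an offset of 50, with limma, left 1 higher and 0 lower at 3 h, 2 higher and 0 lower at 12 h, 3 higher and 0 lower at 72 h, 2 higher and 0 lower between 3 and 12 h, and 1 higher and 1 lower between 12 and 72 h, with the same counts unadjusted. There Slc6a2 at 72 h went to -0.01. Quantile normalization left 2 lower at 72 h, and a floor on dim signals 1 lower between 3 and 12 h. With the slide as a block, 7 rose at 12 h, 2 rose and 1 fell at 72 h, and 1 fell between 12 and 72 h, both of these falls being of Slc6a19, not called without the block. Within the second slide, where a single 12 h array stands against the 72 h arrays and is assumed to vary like them, limma called 0 higher and 0 lower (5 and 3 unadjusted). With 2 groups only, 2 fell at 3 h. On the mean of all probes, 2 fell at 72 h and 1 between 3 and 12 h, and Slc7a10 and Slc36a2 at 12 h turned to -0.74 and -0.18. With no fold threshold, 8 rose and 9 fell at 3 h, 8 fell at 12 h, 17 rose at 72 h, and 10 rose and 11 fell between 12 and 72 h. The causes were not tested. Leaving out each array in turn gave 2 to 4 higher and 1 to 3 lower at 3 h, 7 to 11 and 2 to 6 at 12 h, 7 to 11 and 3 to 5 at 72 h, 4 to 9 and 2 to 2 between 3 and 12 h, and 5 to 7 and 1 to 5 between 12 and 72 h. The extremes came without sham replicate 3 (falls at 3 and 12 h), 12 h replicate 3 (rises at 12 h), 3 h replicate 1 (rises between 3 and 12 h), 72 h replicate 1 or 3 (falls at 72 h) and 72 h replicate 1 (falls between 12 and 72 h). Of the 52 calls, 21 were lost without some array. Same-numbered arrays did not deviate together (18 pairs, r from -0.162 to 0.087, and own number best in 11 of 36 comparisons of an array with another group), so the numbers were not taken as pairs. With a replicate block, 10 rose and 3 fell at 12 h, Slc6a14 being lost, and every other call remained. The median of all probes was -0.16 at 72 h, and -0.02 after quantile normalization.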

Other observations

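Slc38a3, a glutamine carrier of liver and kidney, was well above background on 12 h replicate 2, at -2.70, while the other 12 h arrays read -6.36 and -6.50. Slc1a3, a glutamate carrier of glia, spread widely at 72 h, at -1.24, -2.67 and -4.12, and gave 1.11 against sham with an adjusted p of 0.248. Of the remaining marker lists, 3 of 7 mesothelial genes fell at 3 and 12 h and 3 rose at 72 h, among them Wt1 by 4.39, while none of the 8 T and B cell genes was called in any of the 5 comparisons. None of the 5 fat cell genes was called against sham, and Fabp4 rose between 12 and 72 h. Of 5 endothelial genes, Cdh5 alone was called against sham, at 72 h, and Cdh5 and Tek rose between 12 and 72 h.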
